A study of Saccharomyces cerevisiae with 15 samples.

Results

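The 10 genes described here make the main phospholipids of the yeast Saccharomyces cerevisiae or regulate that synthesis. They were taken by identifier from the 7127 genes of the count table: PSD2, CHO1, CHO2, OPI3, INO1, INO2, OPI1, ITR1, EKI1 and CKI1. The rule used gene identity and no measured value, although the list was drawn up with earlier results of these data known. PSD1 was left out because it was itself overexpressed, and all 10 genes passed the filter on low counts in every comparison. The question was whether overexpression of the phosphatidylserine decarboxylase Psd1 changed the genes that respond to inositol.

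RNA was sequenced from W303 yeast in 5 groups of 3 biological replicates. Cells overexpressed Psd1 (GAL-PSD1), the presequence of Mge1 (residues 1 to 44) fused to mCherry (GAL-MTSMGE1), or the presequence of Mss116 (residues 1 to 53) fused to mCherry (GAL-MTSMSS116). The first pair of constructs was also expressed in cells with PDR3 deleted (pdr3Δ), and no pdr3Δ group for MTSMss116 was analysed. PDR3 encodes the activator of the mitoCPR, the transcriptional response to impaired import of proteins into mitochondria, and Psd1 overexpression impairs that import. The paper reports that overexpression of the Mge1 presequence, unlike that of Mss116, also turned on mitoCPR targets, and that this required Pdr3. The presequence constructs are therefore not interchangeable as controls in cells with PDR3. The GAL promoter drove every construct, and cells were given 1% galactose for 4 hours in raffinose medium. The labels state that all cells carried a 2u empty plasmid, and the strain list gives all strains as MATa with ade2-1, leu2-3, ura3, trp1-1 and his3 alleles, PDR3 replaced by HIS3 in the pdr3Δ strains and URA3 as the marker of every construct. The labels name rich medium (YPR, with 2% raffinose) and the methods synthetic drop-out medium, and neither states an inositol or choline content. No uninduced or empty-vector library was analysed, so Psd1 was compared only with cells overexpressing another mitochondrial sequence. Psd1 carried no mCherry, and this difference cannot be told apart from an effect of Psd1 itself. The PDR3-intact Psd1 strain is listed without the 2micron plasmid of the others. In comparisons with that group, the plasmid difference cannot be told apart from the effect of Psd1 or of PDR3. The pdr3Δ strains of Psd1 and MTSMge1 are listed alike in this respect.

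Phospholipids of yeast are built from phosphatidate by way of CDP-diacylglycerol. Cho1 joins serine to it and makes phosphatidylserine, Psd1 in mitochondria and Psd2 in the Golgi and endosomes convert this into phosphatidylethanolamine, and Cho2 and Opi3 methylate the product to phosphatidylcholine. CDP-diacylglycerol is also joined to inositol, whose phosphorylated precursor Ino1 makes from glucose 6-phosphate and which Itr1 takes up from the medium. Many of these genes share an inositol-choline element in their promoters, to which the activators Ino2 and Ino4 bind as a dimer. When phosphatidate is plentiful the repressor Opi1 is held at the endoplasmic reticulum, and when inositol is supplied and phosphatidate is used up it enters the nucleus and represses Ino2-Ino4 targets, INO1 foremost among them.

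The promoters of the 10 genes were searched in the R64 reference genome (S288C, RefSeq), since the W303 sequence was not used here. The 8-letter core of the inositol-choline element, CATGTGAA on either strand, stood within 500 bases before the start codon of 7 of the 10 genes and of 87 of 6021 protein-coding genes (1.44%). INO1, ITR1 and CHO2 each held 2 copies, and CHO1, INO2, CKI1 and EKI1 each held 1. The 6-letter core CATGTG, which every 8-letter match contains, stood before 9 of the 10 genes and before 13.1% of all genes. OPI3 and PSD2 held only this shorter form and OPI1 held neither. From 250 bases before to 50 after the start codon, the counts were 6 of 10 against 0.698% for the longer form and 8 of 10 against 6.91% for the shorter. The element bound by Pdr1 and Pdr3, TCCGNGGA, was before none of the 10 genes and before 2.91% of all genes in the 500-base window. A match of letters is a description of the sequence and not evidence of binding.

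The stretches with the paired elements of the 3 genes that hold 2 copies are shown because they include the 2 genes with the largest differences between constructs. The third gene, CHO2, differed less between Psd1 and either presequence construct than CHO1 and OPI3, which hold no pair of the 8-letter element. The stretches lie on chrX:136084-136183 (minus strand, before INO1), chrIV:1445668-1445767 (minus strand, before ITR1) and chrVII:802094-802190 (plus strand, before CHO2), outside annotated genes. They are written 5′ to 3′ along the strand of the gene with the 8-letter element in capitals, which reads TTCACATG where it lies on the opposite strand.
INO1: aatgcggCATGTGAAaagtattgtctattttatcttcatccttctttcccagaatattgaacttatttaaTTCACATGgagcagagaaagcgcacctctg
ITR1: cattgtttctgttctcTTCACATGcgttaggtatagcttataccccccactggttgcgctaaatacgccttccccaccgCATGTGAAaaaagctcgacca
CHO2: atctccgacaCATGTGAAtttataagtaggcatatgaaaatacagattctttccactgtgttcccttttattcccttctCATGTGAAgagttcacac

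The single elements of the other genes are shown with their flanks for comparison. CHO1 (chrV:208618-208645, minus strand), INO2 (chrIV:699595-699622, minus), CKI1 (chrXII:408240-408267, plus) and EKI1 (chrIV:751404-751431, plus) hold the 8-letter form. For OPI3 (chrX:573066-573093, minus strand) and PSD2 (chrVII:837000-837027, plus strand) the capitals mark the 6-letter form, CACATG on the opposite strand. Each of these 2 genes holds a further copy, of which that of OPI3 lies within the neighbouring gene MOG1.
CHO1: cctttgagctTTCACATGgacccatcta
INO2: gtacaacacaCATGTGAAtttttttcag
CKI1: tggtataataTTCACATGgtgctctacc
EKI1: cactagacagCATGTGAAaacggtgatg
OPI3: tgcaaacccaCACATGcatcgttggttt
PSD2: agccctaacgCATGTGctacttcaagga

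**Figure D1:**
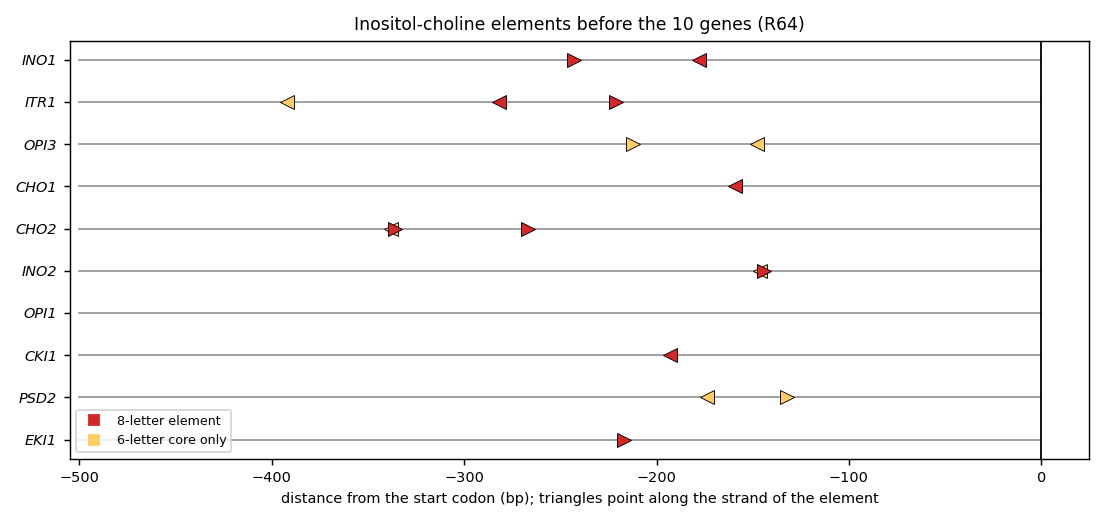
Matches to the inositol-choline element in the 500 bases before the start codon of each of the 10 genes, by distance from the start codon in bp, with red for the 8-letter and yellow for the 6-letter form and triangles pointing along the strand of the match. Red matches stand before 7 of the 10 genes, and OPI1 has no match.

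The libraries held between 9128344 and 15953662 counts on genes, and levels are given as TMM-scaled CPM, which set a gene's count against its library's total on a fixed scale. The overexpressed and deleted genes matched the labels. PSD1 lay between 15301 and 17564 CPM in the 6 Psd1 libraries and between 155 and 262 CPM in the other 9. PDR3 was at or near 0 in the pdr3Δ libraries. In cells with PDR3 intact, its mean was 216 CPM in Psd1, 295 CPM in MTSMge1 and 72.0 CPM in MTSMss116 cells. MGE1 and MSS116 were raised only in libraries of their own construct among the 5 groups. URA3, the marker of the constructs, was lower in the Psd1 libraries (7244 to 9497 CPM) than in the other libraries (13097 to 21082 CPM), and its part in the results below was not tested. In these bulk cultures a lower level in all cells cannot be told apart from a larger fall in some of them.

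INO1 (YJL153C, chromosome X, 134332 to 135933), the inositol-3-phosphate synthase, had the largest ratio of its highest to its lowest library of the 10 genes (13.3). Its level was 1500, 348 and 238 CPM in replicates 1, 2 and 3 of Psd1 cells and 216, 214 and 220 CPM in Psd1 pdr3Δ cells. It was 2854, 2702 and 440 CPM in MTSMge1 cells, 1404, 938 and 265 CPM in MTSMge1 pdr3Δ cells, and 1126, 1863 and 370 CPM in MTSMss116 cells. The Psd1 pdr3Δ libraries were thus the 3 lowest of the 15 and differed from each other by less than the members of any other group. The third replicate was the lowest in the 4 groups other than Psd1 pdr3Δ, and in Psd1 cells the first replicate stood above the other 2.

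ITR1 (YDR497C, chromosome IV, 1443713 to 1445467), the main inositol permease, followed the same order over a narrower range. It was at 1633, 956 and 906 CPM in Psd1 cells and at 910, 926 and 954 CPM in Psd1 pdr3Δ cells. MTSMge1 cells held 2427, 2618 and 1326 CPM, MTSMge1 pdr3Δ cells 2214, 1756 and 1293 CPM, and MTSMss116 cells 2090, 2232 and 1488 CPM. The 5 lowest libraries for ITR1 were replicates 2 and 3 of Psd1 and all 3 of Psd1 pdr3Δ, and the first Psd1 library lay among those of the presequence constructs.

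The methyltransferase genes that turn phosphatidylethanolamine into phosphatidylcholine were OPI3 (YJR073C, chromosome X, 572315 to 572935) and CHO2 (YGR157W, chromosome VII, 802440 to 805049). OPI3 was at 803, 552 and 501 CPM in Psd1 cells, at 546, 537 and 547 CPM in Psd1 pdr3Δ cells, at 1131, 1023 and 594 CPM in MTSMge1 cells, at 930, 831 and 578 CPM in MTSMge1 pdr3Δ cells, and at 858, 1003 and 659 CPM in MTSMss116 cells. CHO2 was at 474, 270 and 281 CPM in Psd1 cells and at 317, 332 and 319 CPM in Psd1 pdr3Δ cells, against 485, 527 and 293 CPM in MTSMge1, 441, 397 and 298 CPM in MTSMge1 pdr3Δ and 426, 463 and 344 CPM in MTSMss116 cells. For OPI3 all Psd1 pdr3Δ libraries lay below all MTSMge1 pdr3Δ libraries, whereas the CHO2 levels of these groups overlapped.

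The decarboxylation branch was represented by CHO1 (YER026C, chromosome V, 207644 to 208474), the phosphatidylserine synthase, and PSD2 (YGR170W, chromosome VII, 837142 to 840558), the second phosphatidylserine decarboxylase. CHO1 was at 521, 325 and 348 CPM in Psd1 cells, at 391, 345 and 388 CPM in Psd1 pdr3Δ cells, at 670, 678 and 388 CPM in MTSMge1 cells, at 623, 497 and 379 CPM in MTSMge1 pdr3Δ cells and at 522, 564 and 394 CPM in MTSMss116 cells. PSD2 had the smallest ratio of its highest to its lowest library of the 10 genes (1.35), with 89.1 to 121 CPM over the 15 libraries, and its group means ran from 95.4 ± 5.39 CPM (SD, n = 3) in Psd1 pdr3Δ cells to 108 ± 6.49 CPM in MTSMss116 cells. Its levels overlapped between all pairs of groups compared.

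Of the regulators, INO2 (YDR123C, chromosome IV, 698554 to 699468), the activator, had group means of 71.7 ± 15.5 CPM in Psd1, 60.9 ± 1.32 in Psd1 pdr3Δ, 85.7 ± 15.5 in MTSMge1, 80.1 ± 14.5 in MTSMge1 pdr3Δ and 84.6 ± 19.0 CPM in MTSMss116 cells. OPI1 (YHL020C, chromosome VIII, 66242 to 67456), the repressor, was at 117 ± 21.0, 116 ± 12.8, 149 ± 26.5, 146 ± 31.6 and 151 ± 21.0 CPM in the same order. Both the activator and the repressor of these genes therefore had their lowest means in the Psd1 groups. INO4, the partner of Ino2, had group means from 37.8 ± 1.89 CPM in Psd1 pdr3Δ to 50.4 ± 12.3 CPM in MTSMge1 cells.

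The kinases that start the salvage routes from free choline and ethanolamine were CKI1 (YLR133W, chromosome XII, 408445 to 410193) and EKI1 (YDR147W, chromosome IV, 751631 to 753235). CKI1, the choline kinase, had group means of 92.7 ± 12.4 CPM in Psd1, 82.4 ± 3.86 in Psd1 pdr3Δ, 110 ± 21.4 in MTSMge1, 105 ± 21.5 in MTSMge1 pdr3Δ and 114 ± 28.0 CPM in MTSMss116 cells. EKI1, the ethanolamine kinase, ranged from 31.3 to 50.3 CPM over the 15 libraries. Per kb of gene, the mean level over the 15 libraries was highest for OPI3 (1191 CPM per kb), ITR1 (901), INO1 (612) and CHO1 (564) and lowest for CKI1 (57.7), PSD2 (29.7) and EKI1 (25.1), with CHO2, OPI1 and INO2 between 145 and 83.7 CPM per kb.

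**Figure D2:**
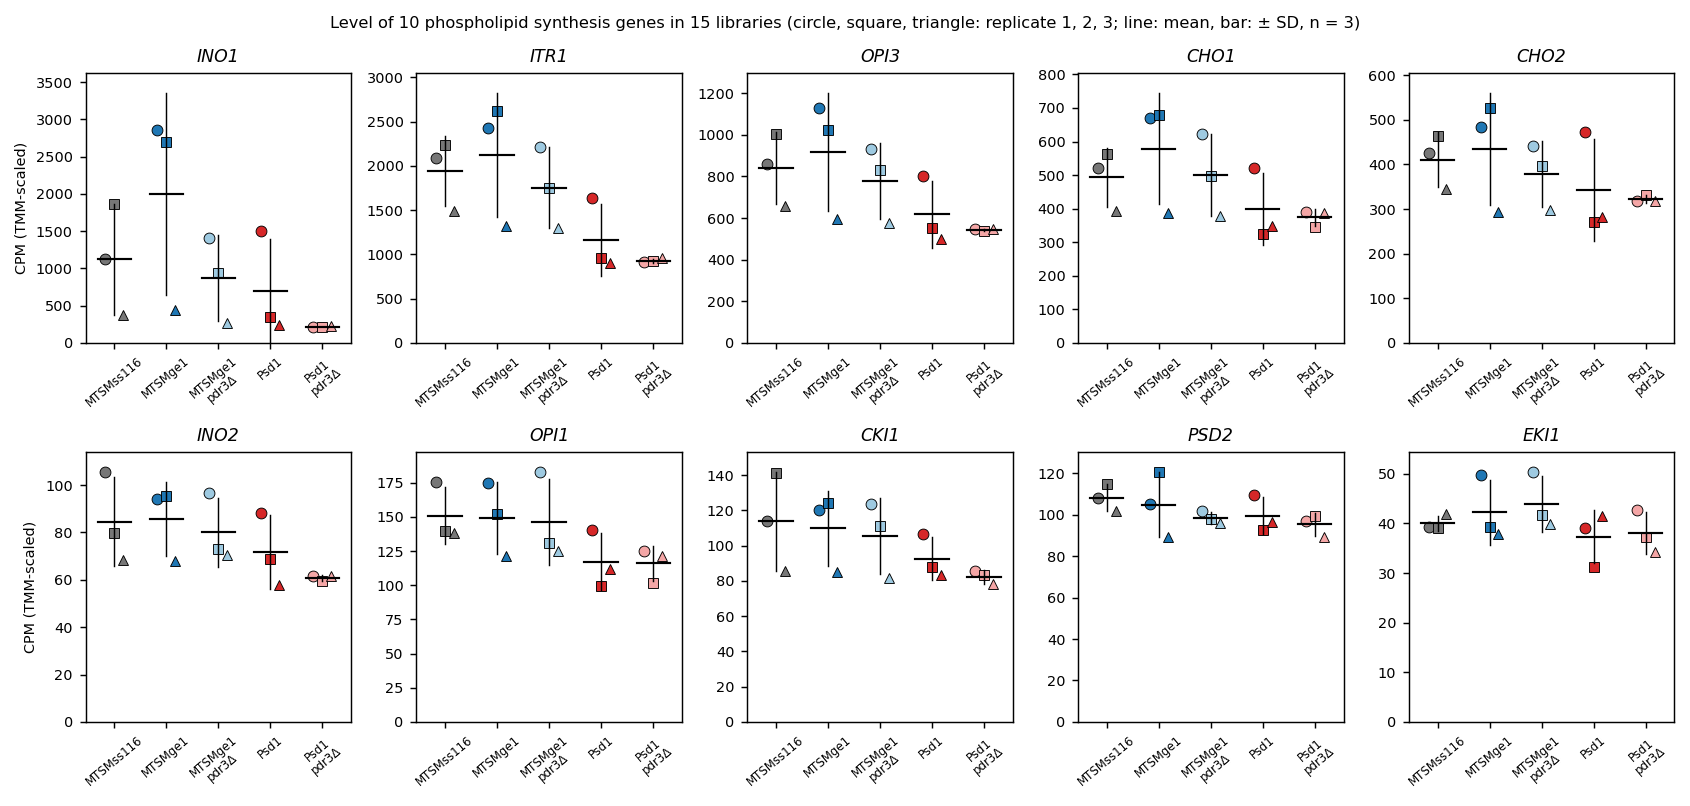
CPM (TMM-scaled) of each gene in the 15 libraries, in panels by gene and columns by group, with circles, squares and triangles for replicates 1, 2 and 3, horizontal lines for group means and vertical bars for ± SD (n = 3). INO1 lies between 214 and 220 CPM in the Psd1 pdr3Δ libraries and reaches 2854 CPM in MTSMge1 cells, whereas PSD2 stays between 89.1 and 121 CPM.

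The spread within groups was shared by most of the 10 genes. All 10 were lowest in the third replicate in MTSMge1 and in MTSMge1 pdr3Δ cells and 9 of 10 were so in MTSMss116 cells, against 5 of 10 in Psd1 and 3 of 10 in Psd1 pdr3Δ cells. The third library was also the deepest of its group outside Psd1 pdr3Δ (15953662 counts in Psd1, 15326370 in MTSMge1, 12059663 in MTSMge1 pdr3Δ and 14503782 in MTSMss116 cells). In MTSMge1 pdr3Δ cells the first library was almost as deep, with 12045139 counts. The part of depth in this spread was not tested. Across the 15 libraries the Pearson correlation of log2 CPM between members of the list had a median of 0.86 over 45 pairs and ran from 0.30 (EKI1 and PSD2) to 0.98 (INO1 and OPI3). After the group means were taken out the median was 0.80. These values describe the 15 libraries together and do not separate constructs from replicates. Effects of depth or culture shared between libraries were not tested.

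The 5 genes whose log2 CPM was most like that of INO1 over the 15 libraries, among 5455 genes with a mean of at least 10 CPM, were OPI3 (r = 0.98), EHT1 (0.97), HTD2 (0.96), CHO1 (0.95) and ERG20 (0.94). EHT1 encodes an acyltransferase that forms fatty acid ethyl esters, HTD2 a dehydratase of mitochondrial fatty acid synthesis and ERG20 the farnesyl pyrophosphate synthase. ITR1 and CKI1 came sixth and seventh by the same measure (both 0.94), and EKI1 was the member least like INO1, with r = 0.44.

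**Figure D3:**
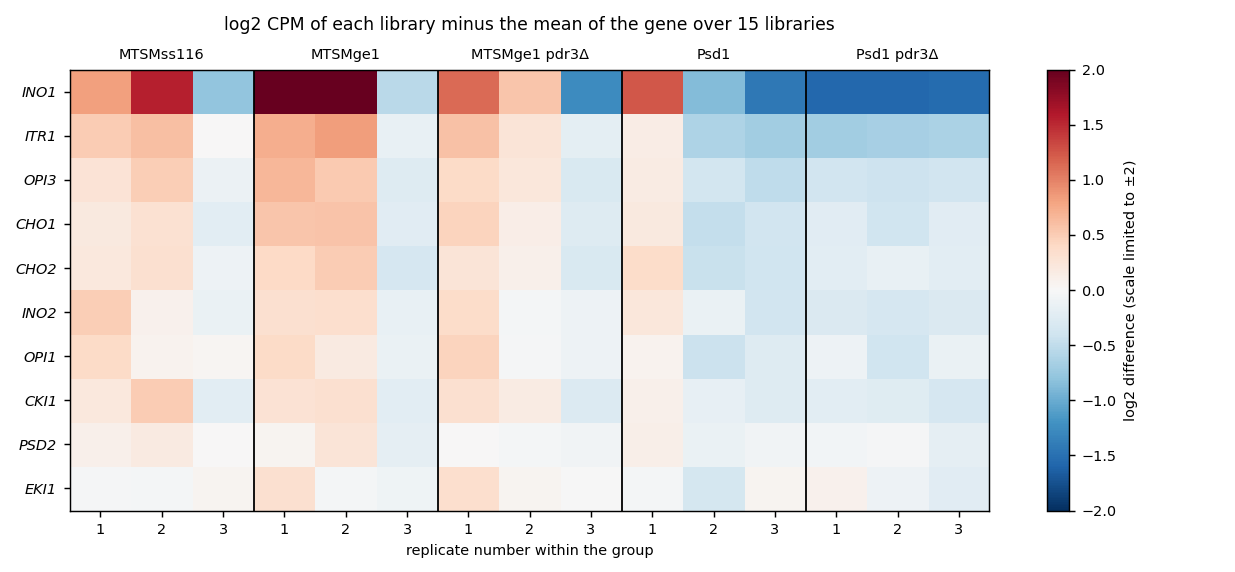
log2 CPM of each library minus the mean of that gene over the 15 libraries, with genes in rows, libraries in columns by group and replicate, and colours from -2 (blue) to 2 (red). The third column of MTSMge1, MTSMge1 pdr3Δ and MTSMss116 is the lowest of its group for 10, 10 and 9 of the 10 genes, and the 3 Psd1 pdr3Δ columns are alike.

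Psd1 was first compared with the presequence control MTSMss116 in cells with PDR3. All 10 genes had a lower fitted level in Psd1 cells, but none passed the test. By edgeR's quasi-likelihood test with Benjamini-Hochberg adjustment over all genes, 0 of 10 were called at an adjusted p of 0.05 or less, where 6.16% of the 6168 genes tested were called and 1.91% were called lower. The median log2 fold change of the 10 genes was -0.29, against 0.01 for all genes tested, of which 49% were below 0. The difference for ITR1 was -0.72 (SE 0.27, 95% interval -1.35 to -0.09, adjusted p = 0.16 by edgeR). For INO1 it was -0.67 (SE 0.80, interval -2.56 to 1.22, adjusted p = 0.67), and 2 libraries decided its size: without the first Psd1 replicate the value was -1.94, and without the second MTSMss116 replicate it was -0.09. The other values ran from -0.43 for OPI3 (interval -0.96 to 0.11) to -0.08 for EKI1 (-0.37 to 0.20). No member separated the groups without overlap, against 13.8% of genes that lay lower without overlap. At an unadjusted p under 0.05, 1 member (ITR1) was lower, where 10.6% of genes were, and DESeq2 called this 1 gene (adjusted p = 0.0437), as it did 13.3% of genes with any count. With the replicate number as a block, edgeR called 2 members, OPI1 and ITR1 (adjusted p = 0.0369 and 0.0386), and 14.1% of genes. By the rule used, the correlation of same-numbered libraries did not allow this block here (lowest r = 0.096).

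Psd1 was then compared with MTSMge1 in cells with PDR3, a comparison that shares its Psd1 libraries with the one above. INO1 and ITR1 had the largest differences, and again no member passed the test although all 10 fitted values were below 0. The call rate was 0 of 10 members by edgeR, against 4.89% of 6157 genes, with 1.46% called lower. INO1 differed by -1.53 on the log2 scale, 2.88-fold lower (SE 0.83, interval -3.46 to 0.40, adjusted p = 0.34), and ITR1 by -0.87, 1.83-fold lower (SE 0.31, interval -1.58 to -0.16, adjusted p = 0.16). OPI3 differed by -0.57 (SE 0.26), CHO1 by -0.55 (SE 0.25), OPI1 by -0.36 (SE 0.16), CHO2 by -0.35 (SE 0.28), INO2 by -0.27 (SE 0.19), CKI1 by -0.25 (SE 0.16), EKI1 by -0.18 (SE 0.15) and PSD2 by -0.08 (SE 0.12). The median of the 10 was -0.35, against -0.01 for all genes, of which 51.7% were below 0. All members overlapped between the groups, while 12.6% of genes lay lower in every Psd1 library. Only ITR1 was under an unadjusted p of 0.05 (10.6% of genes were, in the lower direction), and DESeq2 called 1 member, ITR1 (adjusted p = 0.0306), and 9.29% of genes with any count. Without the first Psd1 replicate the INO1 difference was -2.78 with an adjusted p of 0.15, and without the third MTSMge1 replicate ITR1 and OPI3 were called (adjusted p = 0.0284 and 0.0411), as were 6.91% of genes. With the replicate number as a block, edgeR called 5 members and 18.7% of genes. These were ITR1 (adjusted p = 0.00597), OPI3 (0.00834), INO1 (0.0169), OPI1 (0.0241) and CHO1 (0.0386). By the rule used, the correlation of same-numbered libraries did not allow this block here (lowest r = 0.077).

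The same constructs were compared in pdr3Δ cells, with no library in common with the comparison in PDR3 cells. Here ITR1 was lower in Psd1 than in MTSMge1 cells, by 0.92 on the log2 scale or 1.89-fold (SE 0.18, interval -1.34 to -0.50, adjusted p = 0.0417 by edgeR), with all Psd1 pdr3Δ libraries below all MTSMge1 pdr3Δ libraries. It was 1 of the 10 genes and the only member called by this fit, against 3.93% of 6161 genes called and 1.74% called lower. INO1 had the largest difference, -2.00 or 4.01-fold lower (SE 0.50, interval -3.16 to -0.85, adjusted p = 0.0723), and missed the threshold. OPI3 differed by -0.52 (SE 0.17, adjusted p = 0.14), CHO1 by -0.42 (SE 0.17, 0.22), INO2 by -0.40 (SE 0.13, 0.14), CKI1 by -0.36 (SE 0.14, 0.21), OPI1 by -0.34 (SE 0.16, 0.27), CHO2 by -0.23 (SE 0.14, 0.40), EKI1 by -0.21 (SE 0.13, 0.39) and PSD2 by -0.05 (SE 0.07, 0.76). In all, 5 members (INO1, ITR1, OPI3, INO2 and OPI1) lay lower in every Psd1 pdr3Δ library, where 13.1% of genes did, and 6 had an unadjusted p under 0.05 in the lower direction, where 9.77% of genes did. The median of the 10 was -0.38, against 0.01 for all genes, of which 48.7% were below 0.

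The ITR1 call in pdr3Δ cells rested on the full set of libraries. It was lost when any 1 library other than the third MTSMge1 pdr3Δ replicate was left out, with adjusted p between 0.0623 and 0.19 and log2 fold changes between -0.71 and -0.95. Without the third MTSMge1 pdr3Δ replicate, the lowest library of its group for all 10 genes, 6 members and 5.25% of all genes were called, INO1 among them at -2.44 (adjusted p = 0.000293) and ITR1 at -1.10 (adjusted p = 0.00219). DESeq2 called 3 members (ITR1, INO1 and OPI3) and 8.42% of genes with any count, and a fit with all 5 groups called 0 members and 7.41% of genes. With all libraries kept, the ITR1 call held under 6 of 7 other settings (adjusted p up to 0.0703). The replicate block called 6 members and 15.4% of genes by edgeR, with ITR1 at -0.88 (adjusted p = 0.00364). By the rule used, the correlation of same-numbered libraries did not allow this block here (lowest r = 0.067).

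**Figure D4:**
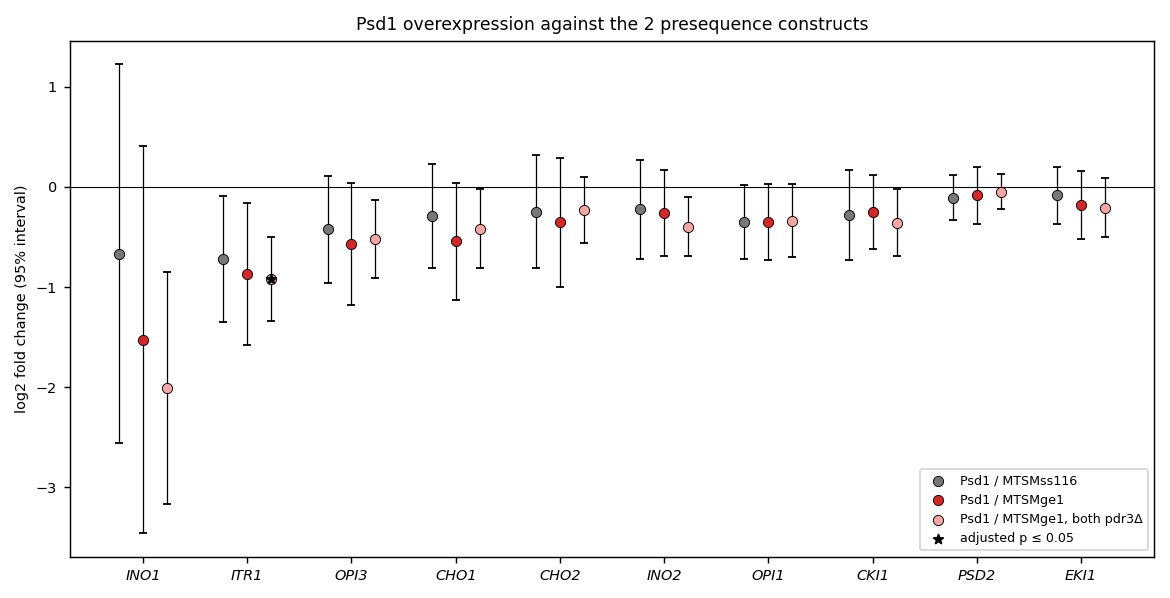
log2 fold change (points) with 95% intervals (bars) of the 10 genes for Psd1 against MTSMss116 and against MTSMge1 in PDR3 cells and against MTSMge1 in pdr3Δ cells, 3 libraries per group, with a star where the adjusted p was 0.05 or less. All 30 points lie below 0, from -2.00 for INO1 to -0.05 for PSD2, and the star is on ITR1 in pdr3Δ cells (-0.92).

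The difference between the constructs was also estimated over both PDR3 genotypes in a single fit of 12 libraries, a comparison added after the values were seen, which reuses the libraries of the 2 before it. All 10 genes had fitted values below 0, with a median of -0.34 against -0.01 for all genes, of which 52% were below 0. In this fit INO1 was lower in Psd1 than in MTSMge1 cells by 1.77 on the log2 scale or 3.40-fold (SE 0.56, interval -2.99 to -0.55, adjusted p = 0.0422 by edgeR), ITR1 by 0.90 or 1.86-fold (SE 0.20, adjusted p = 0.00798) and OPI3 by 0.55 or 1.46-fold (SE 0.17, adjusted p = 0.0401). These were 3 of the 10 members, against 21.8% of 6238 genes called in either direction and 11% called lower. CHO1 (-0.48, adjusted p = 0.061), OPI1 (-0.35, 0.0633), INO2 (-0.33, 0.0701) and CKI1 (-0.31, 0.0761) missed the threshold, as did CHO2 (-0.30), EKI1 (-0.20) and PSD2 (-0.07). At an unadjusted p under 0.05, 7 of 10 members were lower, where 18.1% of genes were. The ITR1 call held in each of the 12 fits that left out 1 library, with values from -1.06 to -0.80. The INO1 and OPI3 calls were lost in 9 of these 12 fits and held without the first Psd1 replicate or the third replicate of either MTSMge1 group, with INO1 between -2.39 and -1.51 and OPI3 between -0.67 and -0.45. No library without an induced construct entered this fit. In PDR3 cells MTSMge1 differed from MTSMss116 by 0.85 for INO1, 0.15 for ITR1 and 0.14 for OPI3. Psd1 differed from MTSMss116 by -0.67, -0.72 and -0.43 for these genes. None of these values was called by edgeR without a block.

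The effect of PDR3 itself was asked within each construct. In Psd1 cells, INO1 was higher with PDR3 in every library (1500, 348 and 238 CPM against 216, 214 and 220 CPM), as were 9.28% of genes, but the difference of 1.68 (SE 0.59, interval 0.33 to 3.03) had an adjusted p of 0.34. It was 0.44 without the first Psd1 replicate. ITR1 differed by 0.33 (SE 0.20, adjusted p = 0.47). By edgeR and by DESeq2, 0 of 10 members were called, against 0.715% of 6150 genes by edgeR, and 1 member had an unadjusted p under 0.05, where 13.2% of genes did. With the replicate number as a block, which the correlation of same-numbered libraries allowed here, 603 of the 6150 genes were called (9.8%) and no member was, with INO1 at 1.18 (adjusted p = 0.11).

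In MTSMge1 cells the PDR3 genotype gave 0 of 10 calls by edgeR and by DESeq2, against 0.728% of 6184 genes by edgeR, and no member was under an unadjusted p of 0.05, where 5.22% of genes were. INO1 was at 1.21 (SE 0.76, interval -0.57 to 2.99, adjusted p = 0.86) and ITR1 at 0.28 (SE 0.29, adjusted p = 0.86), with all 10 genes overlapping between the groups, where 4.72% of genes lay lower and 6.05% higher without overlap. With the replicate number as a block, which the correlations also allowed here, INO1 was called with a log2 difference of 1.10 (SE 0.12, adjusted p = 0.000881), higher with PDR3 in 3 of 3 numbered pairs, as 1 of the 10 members and of 370 genes called (5.98%). The mean level of INO1 was thus higher with PDR3 intact in both constructs, with a call only under the block in MTSMge1 cells.

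Whether the difference between Psd1 and MTSMge1 depended on PDR3 was tested as an interaction. No member was called by edgeR or by DESeq2, none had an unadjusted p under 0.05 (2.9% of genes did), and 0.016% of 6238 genes were called by edgeR. The interaction was 0.48 for INO1 (SE 1.09, interval -1.90 to 2.85) and 0.05 for ITR1 (SE 0.39, interval -0.81 to 0.91), so that a dependence on PDR3 within these intervals could not be detected. MTSMge1 against MTSMss116, the comparison without Psd1, likewise gave 0 of 10 calls by edgeR and by DESeq2, against 0.647% of 6184 genes by edgeR, and no member under an unadjusted p of 0.05, where 7.02% of genes were. It shares its libraries with the comparisons above. INO1 differed there by 0.85 (SE 0.77, interval -0.99 to 2.69), ITR1 by 0.15 (SE 0.28, interval -0.52 to 0.81), and the median of the 10 was 0.09.

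Around the 10 genes, 40 further genes of phospholipid metabolism were measured, and their fitted changes went both ways. Against MTSMss116 in PDR3 cells 20 were lower and 20 higher, with 2 called higher, where 4.25% of all genes were, and 0 lower. Against MTSMge1 the numbers were 21 lower and 19 higher in PDR3 cells and 19 lower and 21 higher in pdr3Δ cells, with 1 called higher and 0 lower in each, where 3.43% and 2.19% of all genes were called higher. The medians of the 40 were 0.00, -0.01 and 0.01. INO4 was below 0 in all 3 comparisons (-0.20, -0.30 and -0.28), with adjusted p of 0.52, 0.37 and 0.27.

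MDM35, whose product carries the lipid transfer proteins Ups1 and Ups2 in the mitochondrial intermembrane space, was the gene called higher in each of these comparisons. It was at 166 ± 6.85 CPM in Psd1 and 156 ± 12.0 CPM in Psd1 pdr3Δ cells, against 118 ± 2.84, 118 ± 7.89 and 103 ± 1.93 CPM in MTSMge1, MTSMge1 pdr3Δ and MTSMss116 cells (SD, n = 3). The rise was 0.71 against MTSMss116 (SE 0.07, adjusted p = 0.00467), 0.48 against MTSMge1 in PDR3 cells (SE 0.07, adjusted p = 0.0122) and 0.41 in pdr3Δ cells (SE 0.09, adjusted p = 0.0494). The call in pdr3Δ cells was lost whichever library was left out (adjusted p 0.0618 to 0.21) and under 4 of 7 other settings with all libraries kept (adjusted p up to 0.0846), that against MTSMge1 in PDR3 cells in 3 of 6 such fits, and that against MTSMss116 in none. TAZ1, the cardiolipin transacylase, rose by 0.48 against MTSMss116 (SE 0.11, adjusted p = 0.047), a call kept in 1 of 6 such fits and under 4 of 7 other settings (adjusted p up to 0.0564).

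In the fit over both genotypes, 7 of the 40 genes rose (called higher in Psd1 than in MTSMge1 cells) and 5 fell (called lower), against 10.7% of all genes called higher and 11% called lower. The largest rises were those of OPI10 (0.57, adjusted p = 0.0224), known from the inositol secretion of its mutants, of GPT2 (0.48, 0.00415), a glycerol-3-phosphate acyltransferase that starts phosphatidate synthesis, and of MDM35 (0.44, 0.000195). The largest falls were those of CDS1 (-0.39, 0.0318), the CDP-diacylglycerol synthase, of UPS2 (-0.38, 0.0344), which carries phosphatidylserine to the inner membrane, and of CPT1 (-0.35, 0.0259), the last enzyme of the CDP-choline route. GPT2 and MDM35 kept their calls in all 12 fits that left out 1 library, OPI10 in 11, CPT1 in 6, and CDS1 and UPS2 in 4. By group of genes, 2 of 5 genes of the CDP-choline and CDP-ethanolamine branches fell and none rose, 2 of 5 genes of inositol supply rose and 1 fell, 2 of 10 genes of phosphatidate and CDP-diacylglycerol rose and 1 fell, 2 of 7 genes of mitochondrial lipid transfer rose and 1 fell, 1 of 4 regulators rose, and none of 6 cardiolipin or 3 fatty acid synthesis genes was called. CATGTGAA was present within 500 bases before the start codon of 5 of the 40 genes: INO4, CPT1, HNM1, CDS1 and FAS2.

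**Figure D5:**
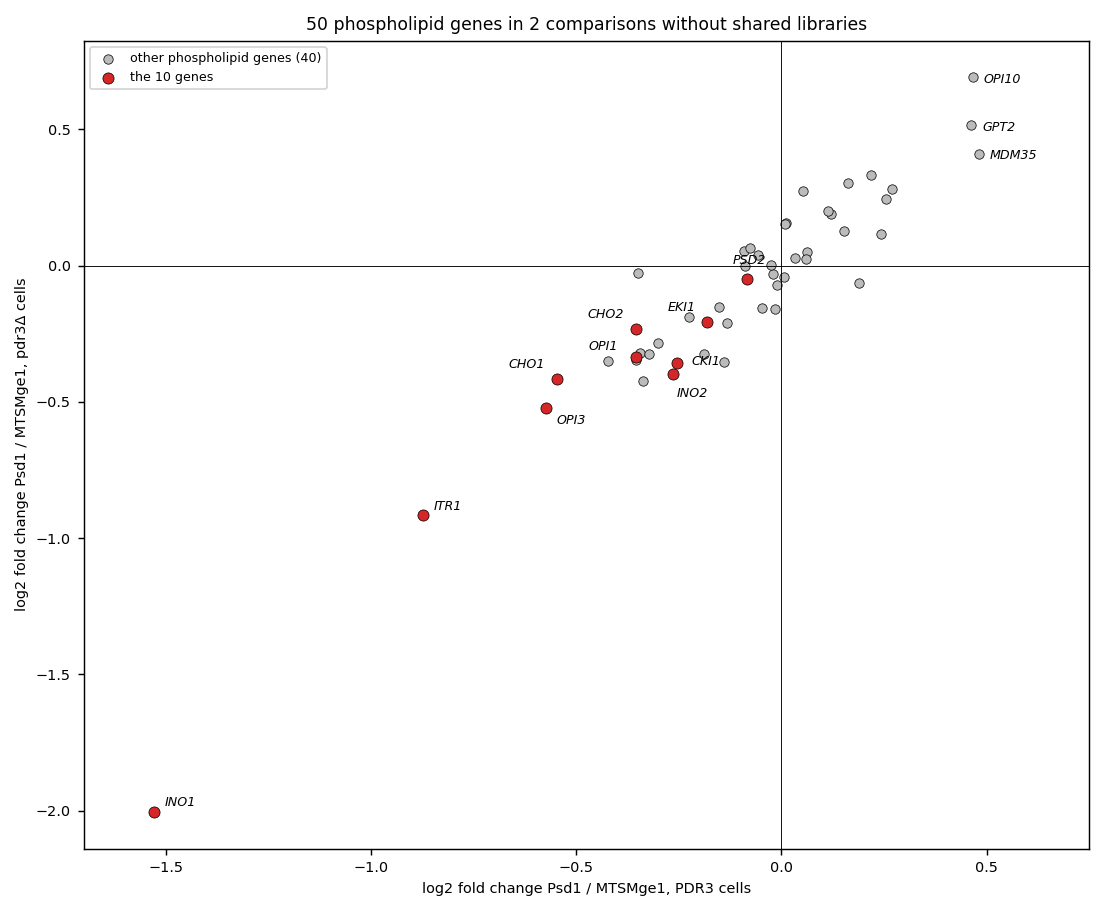
log2 fold change of Psd1 against MTSMge1 in PDR3 cells (horizontal) and in pdr3Δ cells (vertical), with the 10 genes in red and 40 other genes of phospholipid metabolism in grey. The 10 genes lie below 0 on both axes, INO1 farthest at -1.53 and -2.00, and MDM35 lies at 0.48 and 0.41.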

How the data were processed

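The deposited table holds whole-number read counts per gene for 15 yeast libraries, which the authors made with the DRAGEN RNA app and featureCounts on the R64 genome from stranded mRNA libraries, without normalization. Whether counting used strand is not given in the sources used here. Of 7127 identifiers, 6047 matched RefSeq. Groups and replicate numbers came from the sample titles. Total counts ran from 9128344 to 15953662 per library, which sets the counting error of each value. The test was the quasi-likelihood F-test of edgeR 4.0.16 (R 4.3.3) with TMM scaling and filterByExpr, checked on simulated data; each fit held the compared groups alone, and Benjamini-Hochberg adjustment covered every gene in the fit. A gene was called at an adjusted p of 0.05 or less. Libraries are separate samples, and each test set a difference against the spread between them. Without a replicate block, that spread includes what same-numbered libraries share.

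The 10 genes, the lists and the comparisons were chosen with earlier results of these data known. Other genes were named by rule: INO4, for each Psd1 comparison the called pathway genes that changed most (3 per direction), and the 5 genes most like INO1. The fit over both genotypes and the 500-base promoter window were added after values were seen. Alternatives were DESeq2 1.42.0, RLE or total-count scaling, other count filters, all 5 groups in a single fit, each library left out and a replicate block. Same-numbered libraries, numbered in the titles, were taken as paired where every pair of deviations from the group means correlated above 0.1. This held for the PDR3 comparisons within Psd1 (lowest r = 0.15) and within MTSMge1 (0.20). Motifs were counted with Python 3.11.15.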

Additional observations from a re-analysis of the deposited data

How the results depend on the processing

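All 10 genes kept values below 0 in the 3 comparisons of Psd1 with a presequence construct and over both genotypes under every alternative, except EKI1 against MTSMss116 without the second Psd1 replicate (0.00153, range -0.19 to 0.00153 with 1 library left out) and PSD2 against MTSMge1 without the second MTSMge1 replicate (0.040, range -0.18 to 0.040). The number of the 10 genes called was less stable. DESeq2 called 1 against MTSMss116, 1 against MTSMge1, 3 in pdr3Δ cells and 6 over both genotypes, in place of 0, 0, 1 and 3, where it called 13.3%, 9.29%, 8.42% and 23.8% of genes with any count. With all 5 groups in a single fit, 0 were called in pdr3Δ cells. Leaving out 1 library gave from 0 to 2 calls against MTSMge1, from 0 to 6 in pdr3Δ cells and from 1 to 7 over both genotypes. The cause was not tested. No count changed with the scaling or with the filter on low counts.

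The replicate block gave 2 calls against MTSMss116, 5 against MTSMge1, 6 in pdr3Δ cells, 1 for PDR3 in MTSMge1 cells and 7 over both genotypes, where it called 14.1%, 18.7%, 15.4%, 5.98% and 35.4% of all genes, and it changed no other count. In the 5 comparisons of different constructs and in the interaction the lowest correlation of same-numbered libraries was between -0.10 and 0.10, below the rule for pairing, although 14 of 15 libraries correlated best with a library of their own number. Over all genes, calls against MTSMss116 rose from 380 to 906 with DESeq2, 988 in the fit of all groups and 867 under the block. Against MTSMge1 they rose from 301 to 634 with DESeq2 and 1153 under the block, and in pdr3Δ cells from 242 to 573, 463 and 949. For the PDR3 genotype, DESeq2 called 124 genes in place of 44 in Psd1 cells and 77 in place of 45 in MTSMge1 cells. Between MTSMge1 and MTSMss116 it called 118 and the fit of all groups 97 in place of 40, DESeq2 and the block called 12 and 8 in place of 1 for the interaction, and the block called 2211 in place of 1359 over both genotypes. With 1 library left out, all-gene calls ran from 50 to 1503 against MTSMss116, from 41 to 426 against MTSMge1 and from 3 to 326 in pdr3Δ cells.

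Values near 0 changed sign. The interaction was -0.082 for INO1 and -0.00631 for ITR1 under the block, and between -0.78 and 0.90 for INO1 and between -0.28 and 0.23 for ITR1 with 1 library left out. ITR1 between MTSMge1 and MTSMss116 ran from -0.051 to 0.37 with 1 library left out. With 3 libraries per group, INO1 varied widely between replicates. The standard error of its difference was 0.80 for Psd1 against MTSMss116 and 0.83 against MTSMge1 in PDR3 cells. The part of depth in this was not tested.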

Other observations

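The inositol-choline element was followed beyond the 10 genes, as a description with no test of the set. Without the 10 genes, 80 protein-coding genes held CATGTGAA within 500 bases before their start codon, and 74 of them were tested in the comparison of Psd1 with MTSMss116. The set includes INO4, CPT1, HNM1, CDS1 and FAS2, which belong to the 40 further genes of phospholipid metabolism described above. Of the 74, 52 (70.3%) were below 0 there, against 48.5% of all protein-coding genes tested, and 50 (67.6%) were below 0 in each comparison with MTSMge1, in PDR3 cells and in pdr3Δ cells, against 51.1% and 48.2%. The 2 comparisons in PDR3 cells share their Psd1 libraries. Between MTSMge1 and MTSMss116 the share was 54.1%, against 50.7%.

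Of the 74, 2 fell against MTSMss116 (2.7%, against 1.86% of protein-coding genes), 3 against MTSMge1 in PDR3 cells (4.05%, against 1.49%) and 5 in pdr3Δ cells (6.76%, against 1.85%), and 1, 2 and 2 rose (1.35%, 2.7% and 2.7%, against 4.37%, 3.51% and 2.28%). In the fit over both genotypes 19 fell (25.7%, against 11.3% of protein-coding genes) and 4 rose (5.41%, against 11.1%). The genes that fell, named here after their values were seen, include SAM2 (-0.84, adjusted p = 0.00289 by edgeR), an S-adenosylmethionine synthetase whose product donates the methyl groups that Cho2 and Opi3 transfer, YEL073C (-1.94, adjusted p = 0.00238), HTD2 (-0.60, 0.0449), CDS1, CPT1 and HNM1, the choline transporter. The other genes that fell were RKM3, COS111, ELO2, HMO1, TAD1, GUT1, ARG4, SAG1, VPS36, RSF1, YOL162W, RPL33B and HUA2. HSC82, an Hsp90 gene with the same 8 letters before it, rose by 0.71 (adjusted p = 0.000124), and GPD2, CSR1 and ESS1 rose as well. From 250 bases before to 50 after the start codon, 34 such genes were tested. Of these, 0 fell against MTSMss116 (against 1.86% of protein-coding genes), 1 against MTSMge1 in PDR3 cells (2.94%, against 1.49%) and 3 in pdr3Δ cells (8.82%, against 1.85%). In the same order 1, 1 and 2 rose (2.94%, 2.94% and 5.88%, against 4.37%, 3.51% and 2.28%). The shares below 0 were 82.4%, 76.5% and 70.6%, against 48.5%, 51.1% and 48.2%, and 50% between MTSMge1 and MTSMss116, against 50.7%. Over both genotypes 10 fell (29.4%, against 11.3%) and 2 rose (5.88%, against 11.1%).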
